A study of Mus musculus with 8 samples.

Results

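The genes described here are 10 members of 1 signalling system: the Toll-like receptor genes Tlr1, Tlr2, Tlr3, Tlr4, Tlr6, Tlr7, Tlr9 and Tlr12, the chaperone gene Unc93b1 and the adaptor gene Myd88. They were taken by symbol from a table of 46983 genes, all 10 were found, and all 10 passed the filter on low counts that left 15175 genes for testing. The libraries were made from B cells that had been taken by magnetic sorting out of the bone marrow of WT mice, with hypoxia given as the stress for every library. In 4 libraries the treatment was Estrogen and in 4 it was Vehicle, and nothing else in the labels separates the groups. Per the study's methods the sorted B cells were then kept in culture, and its text gives the estrogen as 1 μM. The sources used here give neither the age nor the number of mice behind a library, and nothing shows that each library came from another mouse, so the p-values speak only of the spread among 8 libraries, part of which may be technical. The comparison asks whether estrogen changes the transcripts of these receptors in B cells under low oxygen.

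Toll-like receptors are membrane proteins that bind conserved microbial molecules and signal through a cytoplasmic TIR domain. Those at the cell surface (TLR1, TLR2, TLR4, TLR6) bind bacterial lipoproteins and lipopolysaccharide, while those in endosomes (TLR3, TLR7, TLR9 and mouse TLR12) bind nucleic acids or, for TLR12, the parasite protein profilin. The endosomal receptors leave the endoplasmic reticulum only with the membrane protein UNC93B1. All of them except TLR3 signal through the adaptor MyD88, which recruits IRAK kinases and activates NF-kB and, in endosomes, IRF family factors. B cells carry TLR7 and TLR9 in particular, and plasmacytoid dendritic cells, macrophages and neutrophils of the marrow also carry members of this family.

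The deposited counts summed to between 30181834 and 34236361 reads in Estrogen libraries and between 32484430 and 39088597 reads in Vehicle libraries. The detection floor was set at 3 reads, equal to 0.078 to 0.102 CPM (counts per 1000000 reads of a library after TMM scaling), and covers counting error only. Defining markers of the labelled cell type were present: the 12 B lineage markers summed to 8346 to 13750 CPM in Estrogen and 10020 to 15900 CPM in Vehicle, and none of them was at 0 in all libraries. Their presence does not measure purity. In Estrogen 2, where the B lineage sum was 8346 CPM, the neutrophil markers summed to 9283 CPM. RNA of other marrow cells was present too, and its values stand beside the results below. In such bulk samples, fewer cells of a type and less RNA per cell cannot be told apart. Vehicle 3 stood apart in sex-linked genes, with 9842 reads over 4 Y-linked genes against 0 to 34 reads in each other library, and with Xist at 2.39 CPM against 470.2 to 1441 CPM. For the receptor, chaperone and adaptor genes described here, differences that moved by over 1.5 times without Vehicle 3 are given both ways. Differences of single genes in the other lists, and medians of the marker lists, are given with all libraries only. Among these, the neutrophil markers summed to 8920 CPM in Vehicle 3, more than in any other Vehicle library.

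Sequence decides how surely a read can be given to each receptor. Tlr1 and Tlr6 are neighbours on chromosome 5 and their coding sequences, 2385 and 2418 bases long, were identical at 80.2% of 2274 aligned positions, with 1 identical run of 229 bases. Of all 50-base windows of the annotated transcripts, 15.4% of those of Tlr1 and 12.3% of those of Tlr6 also occur in another gene, most of these in the other member of the pair. Tlr2, Tlr7, Tlr9, Tlr12 and Unc93b1 shared 0 windows and Tlr4 shared 0.216%. Tlr3 shared 5.3%, with the antisense gene Gm45542, and Myd88 shared 7.42%, with Acaa1a on the opposite strand. Since the strand setting of the counting is not given in the sources used here, reads of these overlapping pairs cannot be told apart. Along the coding sequence, Tlr1 and Tlr6 hold 6 identical runs of 50 bases or more. The stretch where the first of these runs begins is shown, on the minus strand of GRCm38, with the 9 differing bases of its first 30 in capitals. The last 50 bases lie in that run, and a read wholly inside it would be the same from either gene.
Tlr1, chr5:64925890-64925969: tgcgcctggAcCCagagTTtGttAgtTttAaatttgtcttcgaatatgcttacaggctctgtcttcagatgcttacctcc
Tlr6, chr5:64954181-64954260: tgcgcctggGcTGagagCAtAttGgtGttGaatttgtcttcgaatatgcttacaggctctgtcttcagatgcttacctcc

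Promoter sequences (RefSeq, GRCm38.p6, 250 bases before to 50 after a start site) were found for 7 of the 10 genes, with 9 start sites. They were searched on both strands for 3 motifs: the core of the interferon-stimulated response element (GAAANNGAAA), since interferon response genes are described below beside the receptors, the palindromic estrogen response element (GGTCANNNTGACC), and the octamer bound by Oct factors of B cells (ATGCAAAT). The interferon motif lay in 2 of the 9 windows, against 3.44% of 32851 promoters, namely before 1 RefSeq start site of Tlr6 (2 overlapping matches, bases 116 to 101 before the start, in a stretch inside the GENCODE span of the gene) and before the RefSeq start site of Myd88 (bases 40 to 31 before the start), in a stretch that overlaps 1 GENCODE exon and lies inside the GENCODE span of the gene. The octamer lay in 1 window, that of Tlr9 (bases 72 to 65 before the start), against 1.74% of promoters. The estrogen motif was in 0 of the 9 windows and in 0.07% of all promoters, which says only that these letters are not in these windows. A match is a description of the letters and not evidence of binding. The matched stretches follow, with the motif in capitals.
Tlr6, minus strand, chr5:64959227-64959322: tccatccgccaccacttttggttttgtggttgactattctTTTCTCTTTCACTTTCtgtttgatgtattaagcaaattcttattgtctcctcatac
Myd88, minus strand, chr9:119340039-119340068: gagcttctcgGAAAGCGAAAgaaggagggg
Tlr9, plus strand, chr9:106222486-106222573: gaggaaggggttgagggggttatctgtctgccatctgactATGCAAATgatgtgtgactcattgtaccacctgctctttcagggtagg

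Per length of transcript, the chaperone gene was far more abundant than any receptor. Unc93b1 averaged 404 ± 24.2 CPM per kilobase of annotated exon (SD, n = 8 libraries), above 99.4% of the 15118 tested genes with a length, and its lowest library, 359 CPM per kilobase, was above the highest of every receptor. Tlr9 followed at 42.1 ± 6.47 and Tlr7 at 25.3 ± 5.56 CPM per kilobase, the highest means among the 8 receptors. Myd88 was at 20.5 ± 2.94, Tlr1 at 14.3 ± 3.91 and Tlr12 at 12.5 ± 1.28 CPM per kilobase. Ranges over the 8 libraries overlapped between each neighbouring pair from Tlr9 down to Tlr12, so the ranges alone do not order these neighbours. Within libraries, Tlr9 was above Tlr7 and Myd88 above Tlr1 in each of the 8, while Tlr7 and Myd88, and Tlr1 and Tlr12, changed places between libraries. The lowest library of Tlr9 (32.3) was above the highest of Myd88 (24.4), Tlr1 (20.02) and Tlr12 (14.04 CPM per kilobase). Below them Tlr2 (7.51 ± 1.37), Tlr6 (3.21 ± 0.296), Tlr4 (2.07 ± 0.363) and Tlr3 (0.248 ± 0.109 CPM per kilobase) followed without overlap between neighbours. Tlr3 was above only 8.5% of tested genes.

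**Figure D1:**
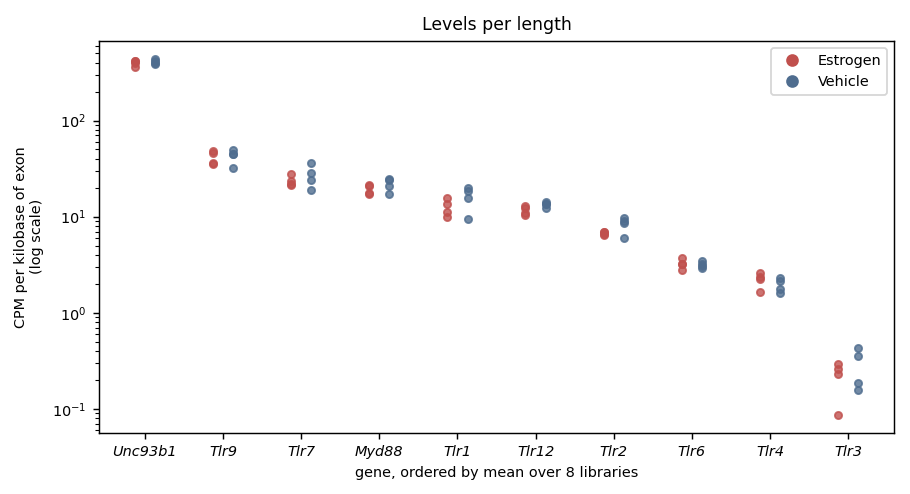
Levels of the 10 genes in CPM per kilobase of annotated exon, on a log axis, with 1 point per library, Estrogen left of Vehicle. Unc93b1 lies above all receptors, Tlr9 (mean 42.1) and Tlr7 (25.3) lead the receptors, Tlr3 (0.248) is lowest, and the points of the groups overlap in every gene.

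Among the surface receptors, Tlr1 and Tlr2, partners in the receptor for triacylated lipoproteins, had lower means in Estrogen, while Tlr6 and Tlr4 did not. Tlr1 (ENSMUSG00000044827, chromosome 5, 64924679 to 64933563, minus strand) was at 52.8, 37.25, 45.4 and 33.1 CPM in Estrogen 1 to 4, against 61.7, 67.0, 52.4 and 31.7 CPM in Vehicle 1 to 4. The groups overlapped: Vehicle 4 was the lowest library of all 8, Vehicle 1 and Vehicle 2 were the highest, and Estrogen 1 was slightly above Vehicle 3. Fitted by edgeR, Tlr1 differed by -0.34 ± 0.23 on the log2 scale (Estrogen minus Vehicle throughout, ± SE), and the 95% interval ran between -0.85 and 0.18 (edgeR p adjusted over all genes tested, 0.860). It was -0.52 without Vehicle 4 (edgeR adjusted p = 0.354, where the alternatives of this gene span 0.354 to 1.00) and -0.20 without Vehicle 2. As a share of its sequence lies in Tlr6 as well, and the other way round, the levels of both are uncertain to that extent.

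Tlr2 (ENSMUSG00000027995, chromosome 3, 83836272 to 83841767, minus strand), which pairs with TLR1 or TLR6 to bind lipoproteins, was at 20.9, 20.6, 19.9 and 19.4 CPM in Estrogen, against 27.3, 28.9, 25.9 and 18.0 CPM in Vehicle. The Estrogen libraries lay close together (SD 0.699 CPM, against 4.83 CPM in Vehicle), whereas 3 Vehicle libraries were above all of them and Vehicle 4 below all of them. The log2 difference was -0.31 ± 0.15 (95% interval -0.64 to 0.02, unadjusted p = 0.0612 and adjusted p = 0.860 in edgeR). Without Vehicle 4 it was -0.44 ± 0.098, with an unadjusted p of 0.00168 and an adjusted p of 0.354 in edgeR (the alternatives of Tlr2 span 0.321 to 1.00).

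Tlr6 (ENSMUSG00000051498, chromosome 5, 64952031 to 64960097, minus strand), the partner of TLR2 for diacylated lipoproteins, was at 10.4, 13.8, 12.05 and 12.07 CPM in Estrogen, against 13.01, 10.9, 11.3 and 12.05 CPM in Vehicle. These ranges lie almost on top of each other, and the log2 difference was 0.04 ± 0.13 (95% interval -0.25 to 0.33). It turned to -0.03 without Estrogen 2, so no direction can be given. Tlr4 (ENSMUSG00000039005, chromosome 4, 66827584 to 66930284, plus strand), the receptor for lipopolysaccharide, was at 9.15, 14.25, 12.4 and 13.1 CPM in Estrogen, against 11.9, 12.8, 9.74 and 8.84 CPM in Vehicle. Estrogen 2 was highest and Vehicle 4 lowest, with Estrogen 1 close to the low end. The log2 difference of Tlr4 was 0.175 ± 0.18 (95% interval -0.23 to 0.58, edgeR adjusted p = 0.860), and it was 0.092 without Vehicle 4 and 0.288 without Estrogen 1.

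The ratio of Tlr1 to Tlr6 varied widely between libraries of both groups. Per kilobase, Tlr1 was 5.63, 3.01, 4.20 and 3.06 times Tlr6 in Estrogen 1 to 4, against 5.29, 6.87, 5.17 and 2.93 times in Vehicle 1 to 4. Both groups hold libraries near 3 and libraries above 5, and the means were 3.97 ± 1.24 in Estrogen and 5.06 ± 1.62 in Vehicle (SD, n = 4 each). The ratio of Tlr1 to Tlr2 was steadier, at 1.87 ± 0.348 in Estrogen and 1.88 ± 0.230 in Vehicle.

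Of the endosomal receptors, Tlr9 and Tlr7 were counted with 2726 to 6580 reads per library, and neither passed the test. Tlr9 (ENSMUSG00000045322, chromosome 9, 106222598 to 106226883, plus strand), the receptor for unmethylated CpG DNA, was at 168, 123, 160 and 127 CPM in Estrogen, against 156.5, 171, 112.5 and 154 CPM in Vehicle. Both groups spanned nearly the same range, with Vehicle 3 lowest and Vehicle 2 highest. The log2 difference was -0.04 ± 0.15 (95% interval -0.38 to 0.30, edgeR adjusted p = 0.945). Its sign turned in 5 of 15 alternative settings, among them library totals in place of TMM scaling (0.0051), so no direction can be given. Without Vehicle 3 the difference was -0.14.

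Tlr7 (ENSMUSG00000044583, chromosome X, 167304929 to 167330558, minus strand), the receptor for single-stranded RNA, was at 95.03, 87.7, 89.4 and 114.5 CPM in Estrogen, against 117, 149, 76.7 and 97.8 CPM in Vehicle. Vehicle 2 was the highest of the 8 libraries and Vehicle 3 the lowest, so the Vehicle libraries enclosed the Estrogen ones. Vehicle 3 is the library with reads of Y-linked genes and almost no Xist, and Tlr7 lies on the X chromosome; whether these are connected was not tested. The log2 difference was -0.19 ± 0.19 (95% interval -0.61 to 0.23, edgeR adjusted p = 0.860). It was -0.31 ± 0.16 without Vehicle 3 (unadjusted p = 0.0789 and adjusted p = 0.968 in edgeR, where the alternatives of Tlr7 span 0.523 to 1.00) and 0.0028 without Vehicle 2, so single Vehicle libraries set its size and even its sign. Per kilobase, Tlr9 was 2.08, 1.64, 2.10 and 1.30 times Tlr7 in Estrogen, against 1.57, 1.35, 1.72 and 1.85 times in Vehicle, so Tlr9 was the more abundant of the pair in each of the 8 libraries.

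Tlr12 (ENSMUSG00000062545, chromosome 4, 128615443 to 128618619, minus strand), a receptor that is a pseudogene in humans, had the smallest p of the 10 genes. It was at 40.5, 33.0, 39.1 and 34.6 CPM in Estrogen, against 44.6, 42.9, 42.8 and 39.4 CPM in Vehicle. Of the Vehicle libraries 3 were above all Estrogen libraries, and Vehicle 4 was inside their range. The log2 difference was -0.21 ± 0.096 (95% interval -0.42 to 0.01, unadjusted p = 0.0603 and adjusted p = 0.860 in edgeR). Over 15 alternative settings it ran from -0.26 to -0.15, always lower in Estrogen, with adjusted p between 0.308 and 1.00. Tlr3 (ENSMUSG00000031639, chromosome 8, 45395665 to 45411080, minus strand), which binds RNA of viral duplexes and signals through TRIF rather than MyD88, was counted with 16 to 85 reads per library. It was at 1.19, 0.452, 1.365 and 1.52 CPM in Estrogen, against 1.84, 2.21, 0.957 and 0.809 CPM in Vehicle. Estrogen 2 was lowest and Vehicle 2 highest, and its log2 difference of -0.37 ± 0.44 had a 95% interval from -1.36 to 0.63, so a change of 2-fold lower was not excluded at this depth and spread (edgeR adjusted p = 0.868). The difference was -0.08 without Vehicle 2 and -0.56 without Vehicle 4.

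Unc93b1 (ENSMUSG00000036908, chromosome 19, 3935186 to 3949340, plus strand), which carries the endosomal receptors out of the endoplasmic reticulum, was the most evenly measured gene of the set. It was at 1250, 1089, 1254 and 1206 CPM in Estrogen, against 1268, 1183, 1341 and 1205 CPM in Vehicle, a coefficient of variation of 5.99% over 8 libraries. The log2 difference was -0.06 ± 0.11 (95% interval -0.29 to 0.18, edgeR adjusted p = 0.898), and it was -0.010 without Vehicle 3, -0.011 without Estrogen 2 and -0.0070 after scaling by library totals. Per kilobase, Unc93b1 was 4.87, 5.35, 5.14 and 5.25 times the sum of Tlr3, Tlr7, Tlr9 and Tlr12 in Estrogen, against 4.75, 3.92, 6.83 and 4.91 times in Vehicle. Vehicle 3, with low Tlr7 and Tlr9, gave the highest ratio, and Vehicle 2, with high Tlr7 and Tlr9, the lowest, so these single libraries set the Vehicle range.

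Myd88 (ENSMUSG00000032508, chromosome 9, 119335934 to 119341411, minus strand), the adaptor shared by all of these receptors but TLR3, was at 54.7, 44.8, 53.5 and 45.03 CPM in Estrogen, against 62.8, 54.2, 62.4 and 44.0 CPM in Vehicle. Vehicle 1 and Vehicle 3 were above all Estrogen libraries and Vehicle 4 below all of them. The log2 difference was -0.17 ± 0.13 (95% interval -0.47 to 0.12, edgeR adjusted p = 0.860), and it was -0.27 without Vehicle 4, -0.10 without Vehicle 1 and -0.105 without Vehicle 3. As for Tlr1, the lowest 3 of the 8 libraries were Vehicle 4, Estrogen 2 and Estrogen 4.

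**Figure D2:**
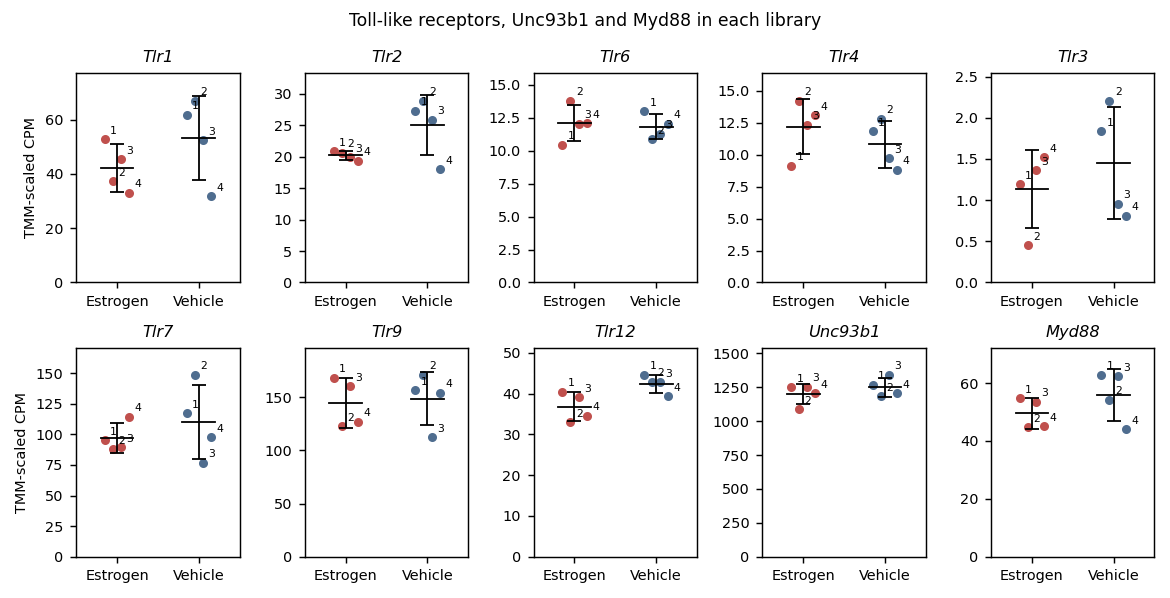
TMM-scaled CPM of each of the 10 genes, with 1 point per library (numbers are the replicate numbers), Estrogen left of Vehicle; lines are means and bars are SD, n = 4 each. Vehicle 4 lies below the other Vehicle libraries in Tlr1 (31.7 CPM), Tlr2 (18.0), Tlr12 (39.4) and Myd88 (44.0), and the groups overlap in all panels.

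Over the whole set, 0 of the 10 genes passed edgeR's quasi-likelihood test at an adjusted p under 0.05, and 0% of all 15175 genes tested did, the smallest p being that of Cd8b1, a T cell coreceptor chain (7.07 CPM in Estrogen and 14.4 CPM in Vehicle, edgeR adjusted p = 0.452). At an unadjusted p under 0.05 there were 0 of the 10 as well, where the share of all genes was 3.53% (2.27% higher and 1.26% lower in Estrogen). DESeq2 and limma-voom also gave 0 of the 10, by either criterion. The groups did not overlap in 0 of the 10 genes, against 1.67% of all genes. Fitted values were lower in Estrogen for 8 of the 10 (all but Tlr4 and Tlr6), against 51.1% of all genes, with a median log2 difference of -0.18 against -0.01 over all genes. The 95% intervals lay within a 2-fold change in both directions for 9 of the 10 genes, all but Tlr3, and within a 1.5-fold change for 6 of them, all but Tlr1, Tlr2, Tlr3 and Tlr7. Vehicle 4 was the lowest Vehicle library in 6 of the 10 genes and Estrogen 2 the lowest Estrogen library in 6. Without Vehicle 4, 4 of the 10 (Tlr1, Tlr2, Tlr12 and Myd88) had an unadjusted p under 0.05, in a fit where 2156 of 15371 genes did, and 0 passed the adjusted threshold. Without Estrogen 1, Tlr12 alone of the 10 had an unadjusted p under 0.05 (0.0338 in edgeR), where 11.3% of all genes did, so 1 of 10 is near the background.

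**Figure D3:**
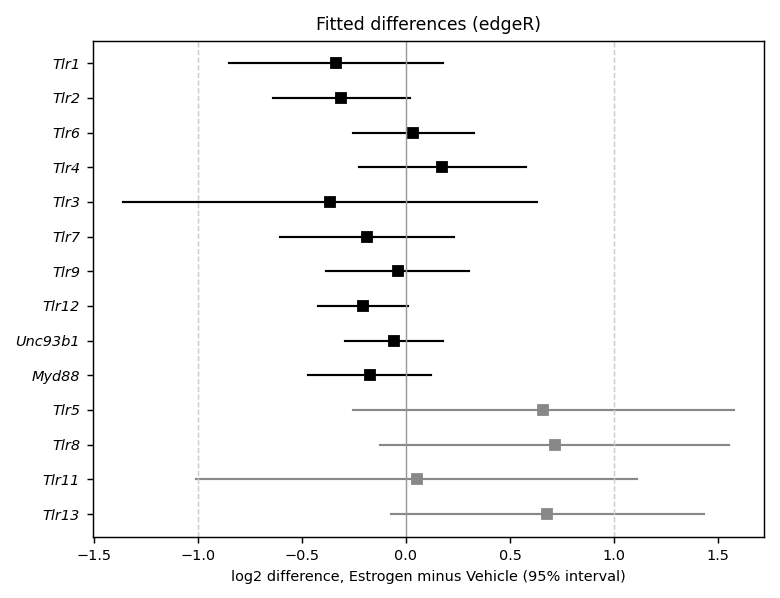
Log2 differences, Estrogen minus Vehicle, from edgeR (squares) with 95% intervals (lines) for the 10 genes (black) and the other 4 mouse Toll-like receptor genes in the table (grey); dashed lines mark a 2-fold change. All intervals cross 0, and among the 10 genes the interval of Tlr3 alone, -1.36 to 0.63, reaches past 2-fold.

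Markers of cells that carry these receptors moved between the libraries as well. All 12 B lineage markers had lower fitted values in Estrogen (median log2 difference -0.26), with Cd79a at 1847 ± 710 CPM in Estrogen and 2504 ± 713 CPM in Vehicle and Cd79b at 1735 ± 646 and 2337 ± 637 CPM. The B lineage sum was low in Estrogen 2 (8346 CPM), Estrogen 4 (8350 CPM) and Vehicle 4 (10020 CPM), the libraries in which Tlr1 and Myd88 were low too. All 10 mature B cell markers had lower fitted values (median -0.49), with sums of 1294 to 1809 CPM in Estrogen and 1343 to 2155 CPM in Vehicle, among them Ighd (528 ± 74.5 and 617 ± 120 CPM). At an unadjusted p under 0.05 in edgeR 3 of the 10 mature B cell markers were lower, against 1.26% of all genes. In 1 of the 10 the groups did not overlap, against 1.67% of all genes. Of the 12 B lineage markers 0 had an unadjusted p under 0.05. The part of these markers in the values of Tlr1, Tlr2 and Myd88 was not tested.

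Markers of macrophages went the other way: 12 of 13 had higher fitted values in Estrogen (median 0.68), with sums of 466.7 to 1258 CPM in Estrogen and 325.4 to 612.9 CPM in Vehicle, among them Cd5l (229 ± 134 and 102 ± 53.9 CPM) and Cd68 (170 ± 42.2 and 122 ± 17.1 CPM). At an unadjusted p under 0.05 in edgeR 4 of the 13 were higher and 0 lower, against 2.27% and 1.26% of all genes. Cd5l (unadjusted p = 0.0448) and Cd68 (0.0251) were among these 4, both with an adjusted p of 0.860 in edgeR. For plasmacytoid dendritic cells, which carry Tlr7, Tlr9 and Tlr12, 7 of 12 markers had higher fitted values (median 0.12), and their sums were 3222 to 3880 CPM in Estrogen and 3081 to 3854 CPM in Vehicle. At an unadjusted p under 0.05 in edgeR 3 of these 12 were higher and 0 lower. Siglech, a defining gene of that cell and one of the 3, was at 1033 ± 319 CPM in Estrogen and 655 ± 189 CPM in Vehicle (log2 difference 0.66 ± 0.25, unadjusted p = 0.0274, adjusted p = 0.860 in edgeR). Ly6d, which early B cells carry too, was at 1086 ± 423 and 1452 ± 521 CPM (-0.42 ± 0.33). Ly6d had the highest CPM of the list, so the near-equal sums do not show equal amounts of these cells. Of 10 monocyte markers 7 had lower fitted values (median -0.19, sums of 1805 to 3562 CPM in Estrogen and 1682 to 3022 CPM in Vehicle), with Lyz2 at 1512 ± 586 and 1270 ± 331 CPM and Chil3 at 530 ± 285 and 413 ± 169 CPM, which are among the 3 with higher values. Ly6c2, the marker of the list with an unadjusted p under 0.05, was at 259 ± 47.1 CPM in Estrogen and 398 ± 114 CPM in Vehicle (log2 difference -0.62 ± 0.22, unadjusted p = 0.0178, adjusted p = 0.860 in edgeR). The 10 neutrophil markers, 6 of them higher, summed to 3267 to 9283 CPM in Estrogen and 3183 to 8920 CPM in Vehicle (median 0.09), led by S100a9 (2128 ± 955 and 1837 ± 909 CPM) and Ngp (1179 ± 633 and 1052 ± 516 CPM). The 7 conventional dendritic cell markers, 5 of them higher, summed to 178.8 to 323.2 CPM in Estrogen and 150.3 to 253.5 CPM in Vehicle (median 0.10), led by Flt3 (118 ± 41.2 and 80.5 ± 29.3 CPM) and Clec10a (43.9 ± 7.18 and 41.6 ± 10.2 CPM). The 12 T and NK cell markers summed to 165.4 to 276.9 CPM in Estrogen and 155.8 to 237.1 CPM in Vehicle (10 tested, 8 of them lower, median -0.61), and most of each sum was Cd4 (79.2 ± 18.1 and 73.1 ± 23.9 CPM) and Cd8a (79.0 ± 47.0 and 50.7 ± 29.3 CPM), the only tested genes of the list with higher fitted values in Estrogen. The defining T cell genes were low in both groups, with Cd3e at 0.228 ± 0.103 CPM in Estrogen and 0.410 ± 0.159 CPM in Vehicle and Cd3d at 0.319 ± 0.107 and 0.572 ± 0.207 CPM, so the sum says little of T or NK cells. At an unadjusted p under 0.05 in edgeR 2 of the 10 tested T and NK markers were lower and 0 higher. In 2 of the 10 the groups did not overlap, against 1.67% of all genes. Of the neutrophil and the conventional dendritic cell markers 0 had an unadjusted p under 0.05 in edgeR. No gene of any of these lists was at 0 in all libraries, which does not show that each of these cell types was present. RNA of other marrow cells can have entered the receptor counts, and its part was not tested.

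Tlr3, Tlr7 and Myd88 are known to be inducible by interferon. Of the interferon response genes 22 of 23 had lower fitted values (median -0.95), with sums of 1278, 646, 1616 and 904 CPM in Estrogen 1 to 4, against 2046, 2547, 1410 and 1098 CPM in Vehicle 1 to 4. At an unadjusted p under 0.05 in edgeR 4 of the 23 were lower and 0 higher, against 1.26% and 2.27% of all genes. The highest library of the interferon sum, Vehicle 2, was also the highest of all for Tlr1, Tlr2, Tlr3, Tlr7 and Tlr9. The lowest of that sum, Estrogen 2, was the lowest of all for Tlr3, Tlr12 and Unc93b1. Other values did not follow this order: Estrogen 2 was the highest of all for Tlr4 and Tlr6, Vehicle 2 was the lowest Vehicle library for Tlr6 and Unc93b1, Tlr7 was lowest in Vehicle 3, and Myd88 was highest in Vehicle 1 and lowest in Vehicle 4. The 2 genes of the list with the highest CPM not divided by length, Stat2 (197 ± 24.8 and 195 ± 29.1 CPM in Estrogen and Vehicle) and Irf9 (174 ± 46.8 and 234 ± 43.0 CPM), differed by 0.01 ± 0.13 and -0.43 ± 0.21, the smallest differences of the 23. Per length Ifit3 (36.5 ± 33.7 CPM in Estrogen and 99.1 ± 62.0 CPM in Vehicle) and Isg15 (19.03 ± 13.2 and 39.6 ± 19.7 CPM) were higher than these, and they differed by -1.44 ± 0.82 and -1.06 ± 0.57. The part of the interferon response in the receptor values was not tested.

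**Figure D4:**
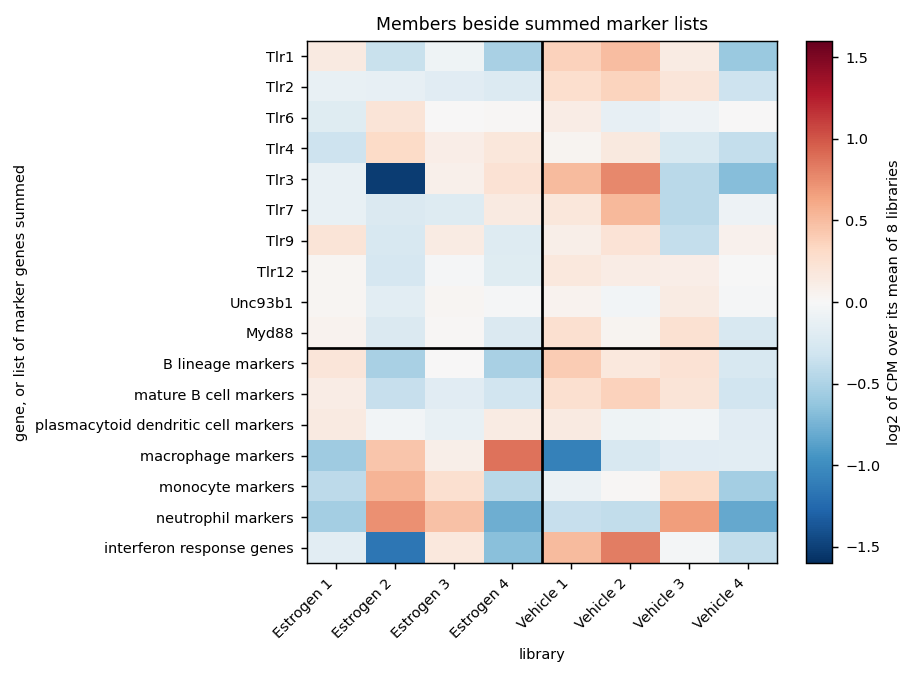
Log2 of the CPM of each of the 10 genes (above the black line) and of the summed CPM of 7 gene lists (below it) over the mean of the 8 libraries, Estrogen libraries left of Vehicle libraries. Tlr1, Tlr2 and Myd88 are low in Vehicle 4 together with the B lineage sum, and Tlr3 (-1.52) and the interferon response sum (-1.16) are lowest in Estrogen 2.

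The 64 other genes of the pathway were all abundant enough to be tested, and 0 passed at an adjusted p under 0.05. At an unadjusted p under 0.05, 4 of the 64 were higher in Estrogen and 0 lower (background 2.27% and 1.26%), DESeq2 gave 6 and limma-voom 4 at that level (4.75% and 3.29% of all genes in the same fits), and their median log2 difference was 0.01. The count of 4 became 11 without Vehicle 4 or without Estrogen 1, where the share of all genes was 14% and 11.3% as well, and 2 without Vehicle 1, Estrogen 2 or Estrogen 4, where it was 1.67%, 1.48% and 1.72%. Among the remaining receptors all 4 fitted values were higher in Estrogen, the opposite side from most of the 10 genes. Tlr13, a mouse receptor for bacterial ribosomal RNA, was at 21.2, 76.0, 44.4 and 46.1 CPM in Estrogen, against 19.4, 30.2, 36.1 and 31.5 CPM in Vehicle, with 3 of 4 Estrogen libraries above all Vehicle libraries and Estrogen 2 far above the rest. Its log2 difference was 0.68 ± 0.34 (unadjusted p = 0.0716 and adjusted p = 0.860 in edgeR). Tlr8, beside Tlr7 on the X chromosome, was at 2.72, 9.28, 6.13 and 7.99 CPM in Estrogen, against 2.26, 4.03, 4.76 and 4.88 CPM in Vehicle (log2 difference 0.71 ± 0.37). Macrophage markers were higher in the same comparison (median 0.68), and their part was not tested.

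Of the genes that help receptors to bind or travel, 10 of 14 had higher fitted values, with a median of 0.05. Hsp90b1, the chaperone gp96 needed to fold most Toll-like receptors, was at 502 ± 42.9 CPM in Estrogen and 498 ± 53.0 CPM in Vehicle, and Cd180, a receptor-like partner on B cells, at 273 ± 25.6 and 282 ± 24.8 CPM. Cd36, a scavenger receptor that hands ligands to TLR2, was at 140 ± 59.0 CPM in Estrogen and 79.1 ± 14.2 CPM in Vehicle (log2 difference 0.82 ± 0.28, unadjusted p = 0.0168, adjusted p = 0.860 in edgeR), and the lipopolysaccharide coreceptor Cd14 at 5.96 ± 3.07 and 4.07 ± 0.878 CPM. Of the proteases that cut endosomal receptors into their active form, Ctsb was at 1600 ± 326 CPM in Estrogen and 1175 ± 120 CPM in Vehicle (0.45 ± 0.16, unadjusted p = 0.0228, adjusted p = 0.860 in edgeR), Ctsl at 415 ± 56.6 and 350 ± 15.8 CPM and Ctss at 587 ± 37.4 and 644 ± 138 CPM, with 3 of 5 higher and a median of 0.21.

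The other adaptors, 3 of 5 with a higher fitted value, had a median of 0.01. Pik3ap1, the B cell adaptor BCAP, was at 346 ± 35.2 CPM in Estrogen and 360 ± 36.1 CPM in Vehicle, and Ticam1, which encodes the TRIF used by TLR3, at 32.0 ± 1.81 and 31.9 ± 3.17 CPM, while Tirap, which bridges MyD88 to surface receptors, was at 39.5 ± 6.05 and 37.3 ± 1.92 CPM and Sarm1 at 0.621 ± 0.244 and 0.416 ± 0.126 CPM. Kinases and ubiquitin ligases below MyD88 had a median of 0.02, with 12 of 18 higher. Tab2 was at 232 ± 8.46 CPM in Estrogen and 229 ± 13.3 CPM in Vehicle, Irak1, the kinase recruited by MyD88, at 136 ± 11.6 and 121 ± 8.55 CPM, and Peli2 at 34.4 ± 7.61 and 25.3 ± 4.31 CPM (0.44 ± 0.18, unadjusted p = 0.0329, adjusted p = 0.860 in edgeR). Of the transcription factors, 7 of 8 were lower (median -0.08). Irf7, the interferon factor activated by TLR7 and TLR9, was at 199, 53.5, 226 and 113 CPM in Estrogen, against 346, 488, 184 and 123 CPM in Vehicle (log2 difference -0.95 ± 0.50, unadjusted p = 0.0890, adjusted p = 0.860 in edgeR), while Irf8 was at 1450 ± 168 and 1290 ± 80.5 CPM and Irf5 at 240 ± 51.1 and 289 ± 69.6 CPM. Inhibitors had 4 of 10 higher (median -0.02), with Dok3 at 770 ± 57.4 CPM in Estrogen and 761 ± 164 CPM in Vehicle, Nfkbia, an NF-kB inhibitor, at 249 ± 55.3 and 287 ± 46.5 CPM, Cd300a at 53.3 ± 10.4 and 39.7 ± 4.31 CPM (0.43 ± 0.15, unadjusted p = 0.0171, adjusted p = 0.860 in edgeR) and the deubiquitinase Tnfaip3 at 115 ± 8.77 and 131 ± 9.90 CPM. No group in this pathway held a gene whose libraries did not overlap between Estrogen and Vehicle (0 of 64, against 1.67% of all genes), which is near the background.

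**Figure D5:**
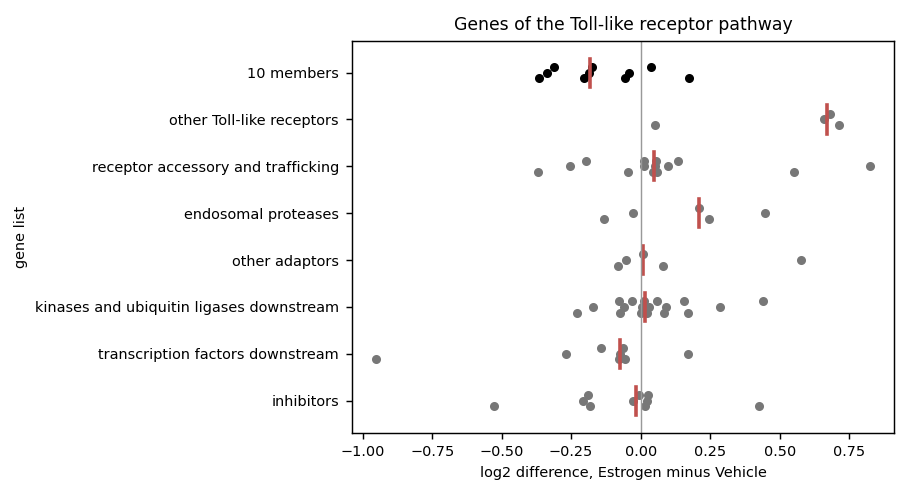
Log2 differences, Estrogen minus Vehicle, of single genes (points) in the 10 genes described here (top) and in 7 lists of other pathway genes, with list medians as red bars. The 10 genes have a median of -0.18 and the 4 other Toll-like receptors a median of 0.67, and the remaining lists are centred between -0.08 and 0.21.

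By likeness of pattern over the 8 libraries, the 3 genes nearest to each of the 10 held no other Toll-like receptor. Of 12962 genes with at least 1 CPM on average, Pearson's r of log2 CPM was highest for Calhm2 with Tlr1 (0.991), Orc5 with Tlr2 (0.971), Ccdc90b with Tlr3 (0.952), Fkbp1b with Tlr4 (0.977) and P3h1 with Tlr6 (0.934). For the others it was highest for E130311K13Rik with Tlr7 (0.954), Mast4 with Tlr9 (0.978), Gm10548 with Tlr12 (0.991), Pdcd5 with Unc93b1 (0.980) and Tmco6 with Myd88 (0.989). The next 2 were Zdhhc6 and Lpcat1 for Tlr1, Mterf1a and Ggta1 for Tlr2, 1810014B01Rik and Immp2l for Tlr3, Zfp11 and Cyp4v3 for Tlr4, and Ctxn1 and Ptgr1 for Tlr6. They were Fscn1 and Zmynd8 for Tlr7, N4bp2 and Bmp6 for Tlr9, Kbtbd2 and Ftsj3 for Tlr12, Ddah2 and Phldb3 for Unc93b1, and Taf11 and Tufm for Myd88. Each is among the highest of 12962 values over only 8 libraries, so they describe these libraries and were not tested. Between the 10 genes themselves, r ran from -0.569 (Tlr4 with Unc93b1) to 0.893 (Tlr1 with Tlr2). The absence of receptors among the nearest 3 therefore does not mean that none of the 10 varied alike.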

How the data were processed

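RNA-seq libraries of sorted bone marrow B cells, 4 Estrogen and 4 Vehicle, were compared. The authors deposited raw read counts per Ensembl gene, 1 column per library and not normalized. Named in the submitters' processing notes are mm10, CASAVA and Bowtie 0.12.2. For the counter, annotation release, strand setting and treatment of multi-mapping reads: not given in the sources used here. Columns were matched to samples by description and samples to groups by title.

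Symbols, coordinates and exon lengths came from GENCODE M21 on GRCm38, which matched 46488 of 46983 identifiers (98.9%). Counts were fitted in R 4.3.3 with edgeR 4.0.16 after filterByExpr (15175 genes, 99.9% of counts) and TMM scaling, with glmQLFit (robust) and a two-sided quasi-likelihood F-test, Benjamini-Hochberg adjustment over all genes tested and a threshold of 0.05. The study's methods name no test for these counts. Levels are TMM-scaled CPM (mean ± SD), and differences are log2 coefficients of the fit ± SE. Log2 CPM for likeness used a prior count of 2. The procedure was tested on simulated counts.

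All 10 genes are named whatever their values. From each pathway list the 2 with the highest level per length and the 2 with the smallest p are named, from marker and interferon lists the 2 with the highest level, and for each of the 10 genes the 3 genes of the most similar pattern. The gene of smallest p in the table is named too. Of the genes so named, 1 named by this rule is not reported here. Xist, Ly6c2, Cd3e, Cd3d, Ifit3 and Isg15 were named after their values were seen, and the plots show Tlr5 and Tlr11 as well. The genes and lists were chosen with earlier results of these data known. Alternatives were DESeq2 1.42.0 size factors, library totals, limma-voom (limma 3.58.1), the Wald test of DESeq2, no filter, a filter of 1 CPM in 4 libraries, a replicate block and each library left out.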

Additional observations from a re-analysis of the deposited data

How the results depend on the processing

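None of the 10 genes passed the adjusted threshold under any of 15 alternative settings, and 143 of 150 alternative values kept the direction of the reported one. The DESeq2 Wald test and the replicate block each called 1 gene in the whole table, none of the 10, against 0 in edgeR without a block. The sign turned for Tlr9 with library totals (0.0051) and, with single libraries left out, for Tlr6 (range -0.032 to 0.10), Tlr7 (-0.31 to 0.0028) and Tlr9 (-0.14 to 0.046). The interferon response median ran from -1.33 to -0.63 with single libraries left out, lowest without Estrogen 3 and highest without Vehicle 2. Estrogen and Vehicle libraries of the same replicate number deviated from their group means with correlations across genes of 0.674, -0.131, 0.0798 and 0.554. For libraries of different numbers they ran from -0.621 to 0.398. The numbers were not taken as pairs in the main fit, and whether any of them are pairs was not tested. The replicate block raised the genes with an unadjusted p under 0.05 to 2175, against 535 without it, those among the 10 to 2, against 0, and those among the 64 other pathway genes to 11, against 4 (14.3% of all genes with the block). Precision was limited by the spread between 4 libraries a group, and for Tlr3 also by its 16 to 85 reads.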
